A study of Mus musculus with 6 samples.

Results

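The genes described here are Traf3 and 9 partners in the noncanonical NF-kB pathway, 10 genes of the 54232 in the table: Traf3, Traf2, Birc2, Birc3, Map3k14, Chuk, Nfkb2, Relb, Tnfrsf13c and Cd40. Traf3 was chosen because its count was higher under the treatment in these same libraries, so its values are a description and carry no test. The partners were chosen by their place in the pathway, though earlier results of these data were already known. All 10 members were found and passed the filter on low counts. Expression was measured in leukaemic B cells sorted from the spleens of wild-type C57BL/6J mice that had received splenic mononuclear cells from Eµ-TCL1 donors by peritoneal injection. Eµ-TCL1 mice carry a TCL1 transgene driven in B cells and develop a disease that resembles chronic lymphocytic leukaemia (CLL). In the CK1i group (3 libraries) the recipients received oral PF-670462, which inhibits the delta and epsilon forms of casein kinase 1, at a dose of 50 mg/kg dissolved in 10% kolliphor/PBS. The CTRL group (3 libraries) received the 10% kolliphor/PBS vehicle alone. Dosing began 5 days after transfer, followed a weekly scheme of 5 treated and 2 untreated days, and lasted 8 weeks in all. The experiment ended when CTRL recipients had at least 60% leukaemic cells among blood leukocytes. The labels give no disease burden for CK1i recipients at that time, no age and no number of donors, and they do not state whether the libraries came from separate mice. P-values therefore measure the spread between these libraries, which may be technical.

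TRAF3 is an adaptor protein that restrains noncanonical NF-kB signalling. In resting B cells it joins TRAF2 and the ubiquitin ligases cIAP1 (Birc2) and cIAP2 (Birc3) in a complex that keeps the kinase NIK (Map3k14) at a low protein level by marking it for degradation. When the BAFF receptor (Tnfrsf13c) or CD40 is engaged, TRAF3 is itself degraded, NIK accumulates and activates IKKα (Chuk), and the p100 precursor made from Nfkb2 is processed to p52, which acts together with RELB. Most of this control is exerted on proteins, which these libraries do not measure.

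Traf3 stood apart from its partners. Its counts were 68, 31 and 87 for replicates 1, 2 and 3 of CK1i, against 7, 8 and 10 for replicates 1, 2 and 3 of CTRL; the same order of replicates is kept throughout. Expressed as CPM, the count per unit of library size after TMM scaling (trimmed mean of M values), these are levels of 22.4, 10.1 and 34.9 CPM in CK1i and 2.48, 3.19 and 3.34 CPM in CTRL. Every CK1i library lay above every CTRL library, and the nearest pair was CK1i replicate 2 at 10.1 CPM and CTRL replicate 3 at 3.34 CPM. Traf3 averaged 22.5 ± 12.4 CPM in CK1i libraries, against 3.01 ± 0.457 CPM in CTRL libraries (SD, n = 3 each), a log2 fold change of 2.87 ± 0.46 (SE). That is the largest log2 fold change of the 10067 tested genes, and it is the value for which the gene was picked. Because the CTRL counts were so low, Traf3 passed the filter only through its CK1i libraries. In bulk samples, fewer cells that express a gene and less of its RNA per cell cannot be told apart.

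The CK1i libraries also differed among themselves in Traf3. The exact 95% Poisson intervals, which cover counting error only, ran from 17.4 to 28.4 CPM in CK1i replicate 1, 6.87 to 14.4 CPM in replicate 2 and 27.9 to 43.0 CPM in replicate 3. The interval of replicate 2 lay below both others, and those of replicates 1 and 3 met at their ends. In CTRL they ran from 0.999 to 5.12, 1.38 to 6.29 and 1.6 to 6.14 CPM for replicates 1 to 3 and overlapped throughout. The coefficient of variation of Traf3 was 55.2% in CK1i and 15.2% in CTRL, where those of the partners lay between 3.21% and 32.2% in either group. The CTRL value of Traf3 rests on 7 to 10 counts per library, fewer than any partner had. In CTRL the coefficients therefore differ in counting error and are not directly comparable. In CK1i, Traf3 had 31 to 87 counts, where Traf2, Relb and Map3k14 had 56 to 83, 55 to 78 and 67 to 83. The CK1i coefficients of those partners were 12.5%, 18.6% and 8.1%. The other partners had more counts in CK1i, and so less counting error. Without CK1i replicate 2 the log2 fold change was 3.22, and without CK1i replicate 3 it was 2.41. A ratio of counts within a library needs no scaling between libraries. The ratio of Traf3 to Traf2 counts was 0.819, 0.463 and 1.55 in the CK1i libraries, against 0.0886, 0.140 and 0.149 in the CTRL libraries. The order of these ratios follows from the Traf3 counts for which the gene was picked.

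Traf3 (ENSMUSG00000021277) lies on the plus strand of chromosome 12, from 111166370 to 111267153 on GRCm38, with 4 protein-coding transcripts that end at 4 different annotated positions. The libraries read only the 3' end of transcripts, so the counts do not say which transcripts or starts were used. The 1 annotated gene that overlaps Traf3, 4930595D18Rik on the opposite strand, had 0 counts in all 6 libraries. The bases before the start are shown for Traf3 because it is the gene that differed, and for Nfkb2 because it is the only other member with a match in such a window. Nfkb2 has 3 windows, each before a different RefSeq transcript start, and the one shown lies inside the gene as GENCODE annotates it, after its annotated start at 46304320. Both come from RefSeq, GRCm38.p6, and capitals mark matches to the kappa-B consensus, the motif that NF-kB dimers bind, on either strand.
Traf3, chr12:111166120-111166369, plus strand: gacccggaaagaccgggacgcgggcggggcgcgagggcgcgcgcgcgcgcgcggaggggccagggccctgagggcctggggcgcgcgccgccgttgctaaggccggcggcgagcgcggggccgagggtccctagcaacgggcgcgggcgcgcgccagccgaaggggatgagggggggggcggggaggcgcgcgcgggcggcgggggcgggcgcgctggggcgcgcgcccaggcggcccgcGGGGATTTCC
Nfkb2, chr19:46304487-46304736, plus strand: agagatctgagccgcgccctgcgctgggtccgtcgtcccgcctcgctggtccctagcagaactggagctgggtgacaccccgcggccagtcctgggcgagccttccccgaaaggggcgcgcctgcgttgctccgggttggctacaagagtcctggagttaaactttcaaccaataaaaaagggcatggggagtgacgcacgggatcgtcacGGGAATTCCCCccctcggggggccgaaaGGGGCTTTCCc
The Traf3 window is 85.2% G and C and holds 49 CG dinucleotides, where the median of all 32851 windows of this length is 52.4% and 6. Its 1 match, GGGGATTTCC, occupies the last 10 bases before the start. The Nfkb2 window holds GGGAATTCCC, which reads the same on both strands and overlaps a further match on the minus strand, and GGGGCTTTCC. Of the 8 members with a window, 2 held a match, Traf3 and Nfkb2, and Nfkb2 also held 1 in each of its 2 other windows. Among all genes with a window 4.46% held a match in at least 1, and among all windows 3.9% did. Relb and Cd40 had no window in the table. A match is a string of letters and not a measured site of binding.

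**Figure D1:**
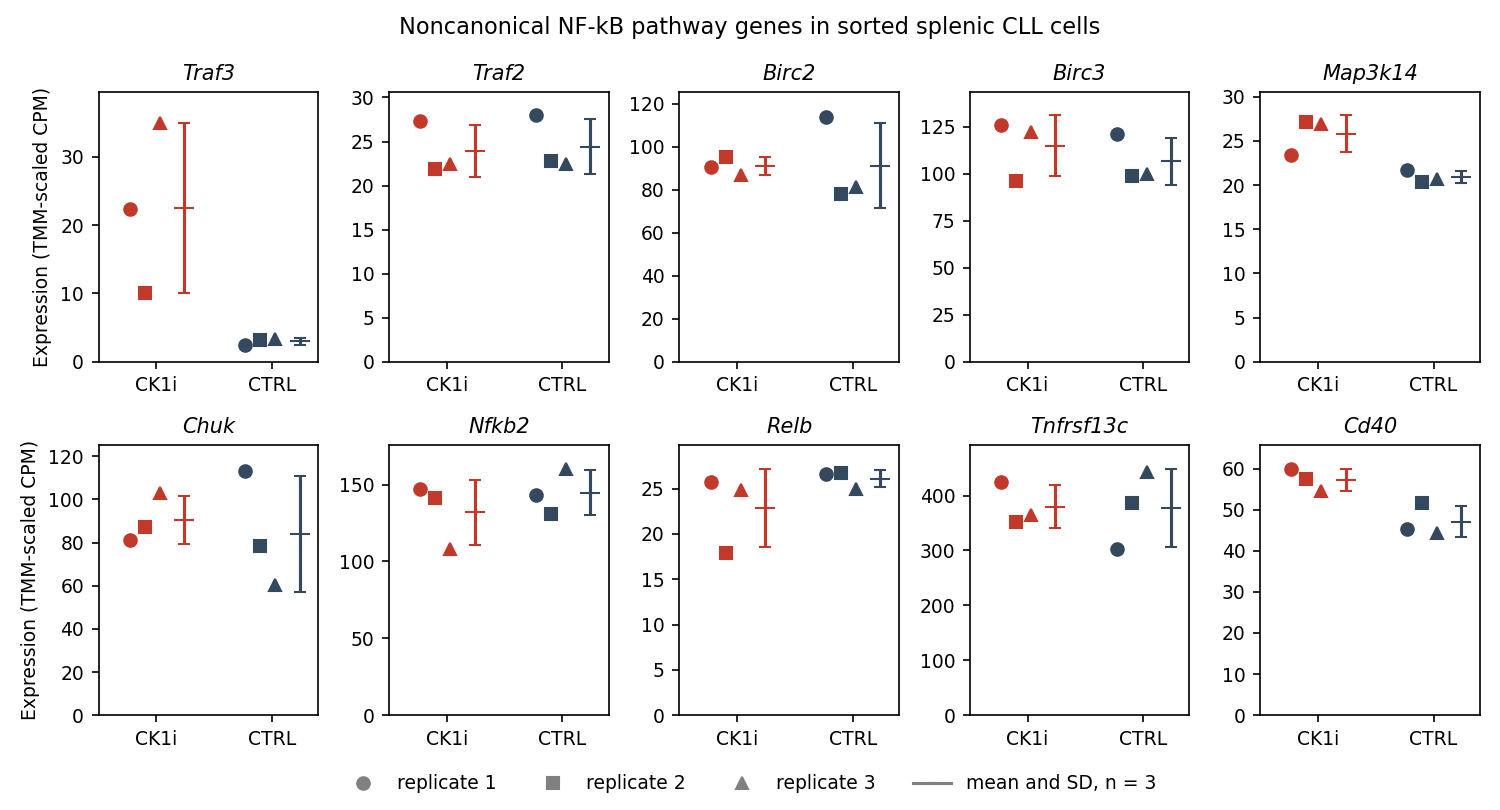
Expression of the 10 pathway genes in TMM-scaled CPM (vertical axes, each starting at 0) in 3 CK1i and 3 CTRL libraries. Points are libraries, with the symbol giving the replicate, and bars are the mean and SD. Traf3 lies between 10.1 and 34.9 CPM in CK1i, above 2.48 to 3.34 CPM in CTRL, while the groups overlap in 7 of the 9 partners and are apart in Map3k14 and Cd40.

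None of the 9 partners passed the threshold when CK1i was compared with CTRL by edgeR's quasi-likelihood test with Benjamini-Hochberg adjustment over all 10067 tested genes (adjusted p under 0.05). Their adjusted p-values were 0.999 or 1, and 0 of them had an unadjusted p under 0.05. Over all tested genes the test called 0, or 0% of them, and 4.7% had an unadjusted p under 0.05. DESeq2 likewise called 0 of the 9 partners, against 0.0266% of all the genes it tested. Log2 fold changes of the partners ran from -0.20 for Relb to 0.30 for Map3k14. Taken as folds, their 95% intervals, which are not adjusted for the number of genes, reached down to 0.65 and up to 1.62. A p that misses the threshold does not show equal expression. A change as large as that of Traf3 lies outside each of these intervals. Traf3 was picked for its large change, however, so this does not set the partners apart from other genes.

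**Figure D2:**
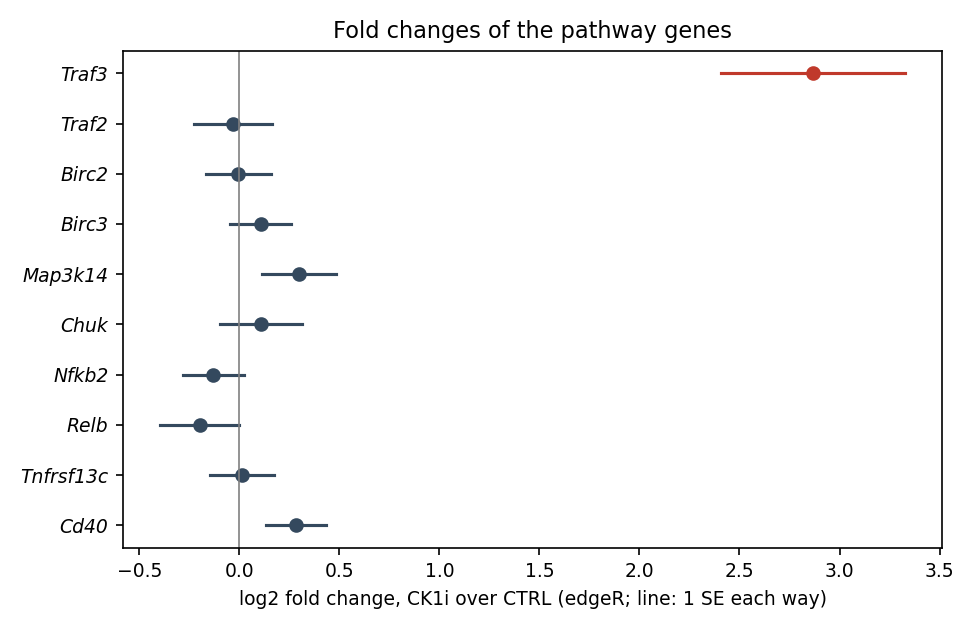
Log2 fold change of the 10 genes, CK1i over CTRL, from the edgeR fit (horizontal axis). Points are estimates and lines extend 1 SE each way; Traf3, in red, is at 2.87 and the partners lie between -0.20 and 0.30.

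Of the receptors, Cd40 had slightly higher values in CK1i. CD40 is the receptor through which T cells activate B cells. Cd40 (chromosome 2, 165055627 to 165072948) had 59.9, 57.4 and 54.5 CPM in CK1i and 45.4, 51.5 and 44.4 CPM in CTRL. The groups did not overlap, and the log2 fold change was 0.28 ± 0.15 (SE; 95% interval -0.037 to 0.60; edgeR adjusted p = 0.999). Tnfrsf13c encodes the BAFF receptor, the survival receptor of mature B cells. Tnfrsf13c (chromosome 15, 82221743 to 82224369) had 424, 351 and 365 CPM in CK1i and 302, 386 and 443 CPM in CTRL, and the CK1i range lay inside the CTRL range. Its log2 fold change was 0.012 ± 0.16 (SE; 95% interval -0.33 to 0.36).

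The genes of the complex that TRAF3 joins did not share its difference. Traf2 (chromosome 2, 25517982 to 25546940), which encodes the adaptor that brings the cIAP ligases to TRAF3, had 27.3, 21.9 and 22.5 CPM in CK1i and 28.0, 22.8 and 22.4 CPM in CTRL. In each group replicate 1 was the highest, and the means were 23.9 CPM in CK1i and 24.4 CPM in CTRL, with a log2 fold change of -0.030 ± 0.20 (SE). Birc2 and Birc3 are neighbours on chromosome 9 (7818227 to 7837064 and 7848699 to 7873186) and encode related ubiquitin ligases. Birc2 had 90.5, 95.2 and 87.0 CPM in CK1i and 114, 78.2 and 81.5 CPM in CTRL, with CTRL replicate 1 above all other libraries. Birc3, which is also an NF-kB target, had 126, 96.2 and 122 CPM in CK1i and 121, 98.6 and 100 CPM in CTRL. Both groups spanned nearly the same range for Birc3, and the log2 fold changes were -0.0048 ± 0.16 for Birc2 and 0.11 ± 0.15 for Birc3 (SE).

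Of the kinases, Map3k14 was higher in each CK1i library than in any CTRL library. NIK, its product, is the kinase whose protein level TRAF3 holds down. Map3k14 (chromosome 11, 103219762 to 103267472) had 23.4, 27.1 and 26.9 CPM in CK1i and 21.7, 20.4 and 20.7 CPM in CTRL. The log2 fold change was 0.30 ± 0.19 (SE; 95% interval -0.097 to 0.70; edgeR adjusted p = 0.999), so the difference did not pass the threshold. The gene 1700028N14Rik overlaps Map3k14 on the same strand and held 20 counts over the 6 libraries. Chuk (chromosome 19, 44073335 to 44107480), which encodes the kinase that NIK activates, had 81.3, 87.1 and 103 CPM in CK1i and 113, 78.2 and 60.1 CPM in CTRL. The CTRL libraries held both the highest and the lowest value, and the log2 fold change of 0.11 ± 0.20 (SE) became -0.085 without CTRL replicate 3 and 0.38 without CTRL replicate 1.

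Cd40 and Map3k14 were the 2 partners of 9 with all CK1i libraries above all CTRL libraries, an order found in 5.22% of all tested genes; 0 partners had the opposite order, found in 4.48%. Traf3 has the first order by its selection.

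The transcription factor genes had slightly lower means in CK1i. Nfkb2 (chromosome 19, 46304320 to 46312385) encodes p100, the precursor of p52, and had 147, 141 and 108 CPM in CK1i and 143, 131 and 160 CPM in CTRL. Relb (chromosome 7, 19606217 to 19629438) encodes the partner of p52 and had 25.7, 17.9 and 24.9 CPM in CK1i and 26.6, 26.7 and 25.0 CPM in CTRL. CK1i replicate 3 was the lowest library for Nfkb2 and CK1i replicate 2 the lowest for Relb, and the groups overlapped for both. Log2 fold changes were -0.13 ± 0.15 for Nfkb2 (95% interval -0.46 to 0.20) and -0.20 ± 0.20 for Relb (-0.62 to 0.23; SE). Without CK1i replicate 3 the value for Nfkb2 was -0.015, and without CK1i replicate 2 that for Relb was -0.051.

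The wider pathway was followed in 6 lists and a proliferation list. No member of any of the 7 lists passed the threshold in either direction by edgeR. The median log2 fold change over all tested genes was -0.0055, with 48.8% of genes above 0, and 90% of genes lay between -0.42 and 0.44. Other receptors and ligands of the pathway had 16 genes, of which 5 could be tested, 2 above 0 and 3 below, with a median of -0.17. Tnfrsf13b, which encodes TACI, a second receptor for BAFF, had 567, 541 and 601 CPM in CK1i and 578, 578 and 465 CPM in CTRL. Tnfrsf8, which encodes CD30, had 5.59, 4.57 and 6.42 CPM in CK1i and 30.9, 5.99 and 9.01 CPM in CTRL, and its log2 fold change of -1.48 ± 0.61 (SE) was -0.47 without CTRL replicate 1. Ltb, which encodes lymphotoxin beta, spanned 13.6 to 19.4 CPM in CK1i, within the 10.3 to 30.4 CPM of CTRL. The ligand genes Cd40lg, Tnfsf13 and Tnfsf11 and the receptor gene Ltbr had no count in any of the 6 libraries. The floor used for a count of 0 is 3 counts over the 6 libraries pooled, or 0.176 CPM. It takes 1 common level for all 6 libraries, and the level in a single group could be higher. Expression of these genes was not detectable at this depth, and Tnfsf13b, the gene of BAFF itself, had 3 counts in all.

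The list of regulators of TRAF3, NIK and p100 had 5 of its 10 tested genes above 0 and 5 below, with a median of 0.0018. Traf3ip2 and Ikbke had the smallest p-values among them, with log2 fold changes of 0.23 ± 0.18 and 0.25 ± 0.21 (SE). Otud7b, a deubiquitinase of TRAF3, had -0.11 ± 0.14, and Peli1, which encodes a ubiquitin ligase that targets NIK, 0.077 ± 0.14 (SE), both chosen after their values were seen. Among the other TRAF genes 3 of 5 tested genes were above 0, with a median of 0.014. Traf1, itself a target of NF-kB, spanned 30.1 to 48.4 CPM in CK1i, within the 26.7 to 66.4 CPM of CTRL, while Traf5, the close relative of Traf3, had 4 counts over the 6 libraries and could not be tested.

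The canonical arm of NF-kB had all 22 genes tested, 9 above 0 and 13 below, with a median of -0.042. Nfkbie, which encodes the inhibitor IkB epsilon, had 47.1, 42.1 and 46.1 CPM in CK1i and 56.8, 48.3 and 63.8 CPM in CTRL. All CK1i libraries lay below all CTRL libraries, an order found in 4.48% of tested genes, and the log2 fold change was -0.32 ± 0.16 (SE; edgeR adjusted p = 0.999). Nfkbie also belongs to the list of NF-kB target genes in B cells, of which 23 of 25 were tested, 5 above 0 and 18 below, with a median of -0.074. That median was -0.25 without CK1i replicate 1 and 0.0060 without CK1i replicate 2. Icam1, an adhesion molecule induced by NF-kB, had a log2 fold change of -0.40 ± 0.23, and Cxcr5, a homing receptor for follicles, -0.22 ± 0.16 (SE). Genes reported downstream of TRAF3 in B cells had 5 of 10 above 0 and 5 below, with a median of 0.0016 and a range of -0.11 to 0.27. Among these were Hk2, which encodes a glycolytic enzyme, with 0.24 ± 0.23, and Creb1, a transcription factor, with -0.11 ± 0.13 (SE).

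**Figure D3:**
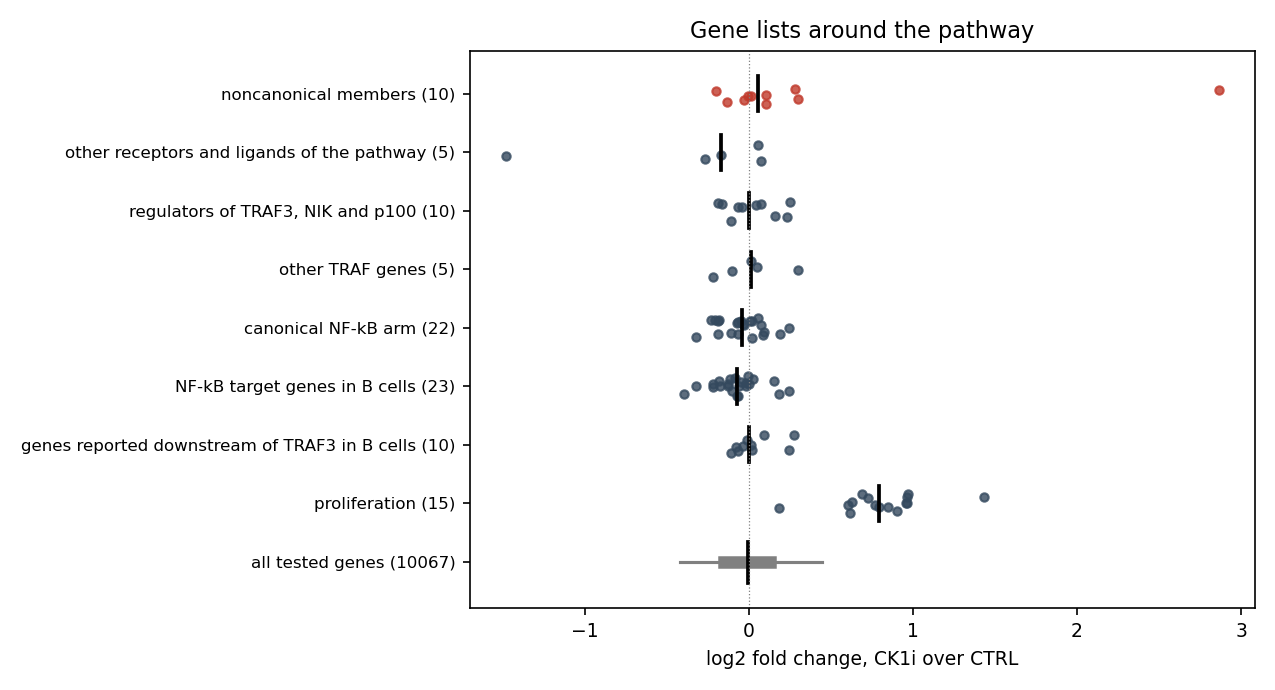
Log2 fold change, CK1i over CTRL (horizontal axis), of the tested genes of 8 lists, with the number tested in brackets. Points are genes and black lines medians; the grey bar and line for all tested genes span the middle 50% and 90%. Except for Traf3 and Tnfrsf8 the NF-kB lists lie between -0.40 and 0.30, and the proliferation list has a median of 0.79.

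Division genes and a macrophage list had higher values in CK1i. All 15 genes of the proliferation list were above 0, against 48.8% of all tested genes, with a median log2 fold change of 0.79. Of the 15, 13 had an unadjusted edgeR p under 0.05, against 4.7% of all tested genes, and 0 passed the threshold. The list was chosen with earlier results of these data known, so these counts are a description only. The summed level of that list was 1811, 2584 and 1749 CPM in CK1i, against 819, 1481 and 1471 CPM in CTRL. CK1i replicate 2, the highest of these, was the CK1i library with the least Traf3. Defining markers of B and CLL cells were present in every library: Ms4a1, which encodes CD20, averaged 2321 ± 233 CPM in CK1i libraries, against 2150 ± 33.3 CPM in CTRL libraries (SD, n = 3 each), and Cd5 spanned 27.7 to 31.7 CPM in CK1i, within the 25.9 to 34.3 CPM of CTRL. The monocyte and macrophage list summed to 36.2 to 46.4 CPM in CK1i and 27.7 to 30.7 CPM in CTRL, without overlap. Most of that sum was Cd68, with 475 counts in all, followed by Itgam with 53 and Adgre1 with 29. The markers Csf1r, Lyz2, Vcam1 and C1qa had 6, 16, 7 and 2 counts over the 6 libraries, and Cd14 had 0. Mean levels of Itgam, Adgre1, Lyz2, Vcam1 and C1qa were higher in CK1i, and those of Csf1r, C1qb and C1qc were lower. T-cell markers summed to 3.59 to 18.4 CPM in CK1i and 5.19 to 12.4 CPM in CTRL, NK-cell markers to 1.3 CPM at most in any library, dendritic-cell markers to 3.34 CPM at most, erythroid markers to 5.68 CPM at most and neutrophil markers to 3.29 CPM at most. Stromal and endothelial markers summed to 163 to 177 CPM in CK1i and 176 to 191 CPM in CTRL, nearly all of it Pecam1. The other markers of that list were low or absent. Col1a1, Cdh5 and Pdgfrb had 61, 46 and 1 counts over the 6 libraries, and Col3a1 and Ccl21a had 0. The part of any of these lists or cell types in the Traf3 difference was not tested.

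Genes around Traf3 on the chromosome did not show its difference. Distances run from the Traf3 start to the lower coordinate of each gene, on either strand. Within 500 kb by this measure, 36 other genes are annotated and 12 of them were tested. Of those tested, 7 were above 0 and 5 below, with a median log2 fold change of 0.09 and 0 past the threshold by edgeR. Rcor1, which encodes a corepressor and starts 127 kb before Traf3, had 105, 94.3 and 102 CPM in CK1i and 101, 87.4 and 87.8 CPM in CTRL, a log2 fold change of 0.13 ± 0.14 (SE). On the other side, Cdc42bpb, which encodes a kinase of the cytoskeleton, had 0.13 ± 0.34, and A230087F16Rik, which overlaps it on the opposite strand so that their counts are uncertain, -0.62 ± 0.34 (SE). Ankrd9 had -0.22 ± 0.31. The highest value of the 12 was that of Hsp90aa1, a chaperone gene 476 kb away, with 0.53 ± 0.19 (SE; edgeR adjusted p = 0.929), named after its value was seen.

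**Figure D4:**
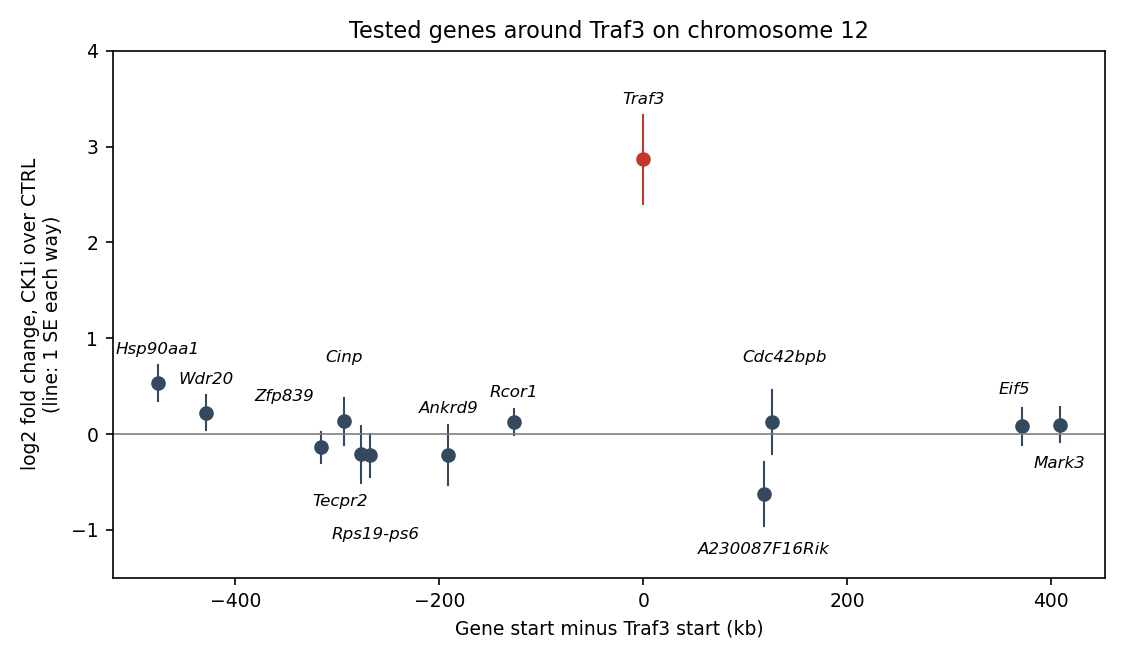
Log2 fold change, CK1i over CTRL (vertical axis), of the tested genes within 500 kb of the Traf3 start, against distance in kb (horizontal axis). Distance runs from the Traf3 start to the lower coordinate of each gene, which is the transcript end for minus-strand genes. Points are estimates and lines extend 1 SE each way; Traf3 is at 2.87 and the 12 other genes lie between -0.62 and 0.53.

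Among 9456 tested genes with a mean of at least 5 CPM, the profiles over the 6 libraries most like that of Traf3 were those of Ppp2r5d, Cish, Them4, Cep55 and Troap. Likeness was the root mean square difference of log2 CPM after centring each gene on its mean, which was 0.696, 0.746, 0.760, 0.805 and 0.846 for these genes and 1.36 for the median gene. Ppp2r5d, which encodes a regulatory subunit of the phosphatase PP2A, had 9.54, 5.22 and 13.6 CPM in CK1i and 3.55, 3.99 and 3.34 CPM in CTRL. Like Traf3, it was highest in CK1i replicate 3 and had its lowest CK1i value in replicate 2. Cish, which encodes a SOCS-family inhibitor of cytokine signalling, had 9.21, 5.55 and 12.8 CPM in CK1i and 2.48, 5.99 and 2.67 CPM in CTRL, so CTRL replicate 2 lay among the CK1i values. Them4, Cep55 and Troap had log2 fold changes of 1.35 ± 0.37, 1.20 ± 0.29 and 1.43 ± 0.24 (SE). Cep55 and Troap encode proteins of cell division. These genes were chosen for their likeness to a gene picked from the same comparison, so their differences are a description only.

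**Figure D5:**
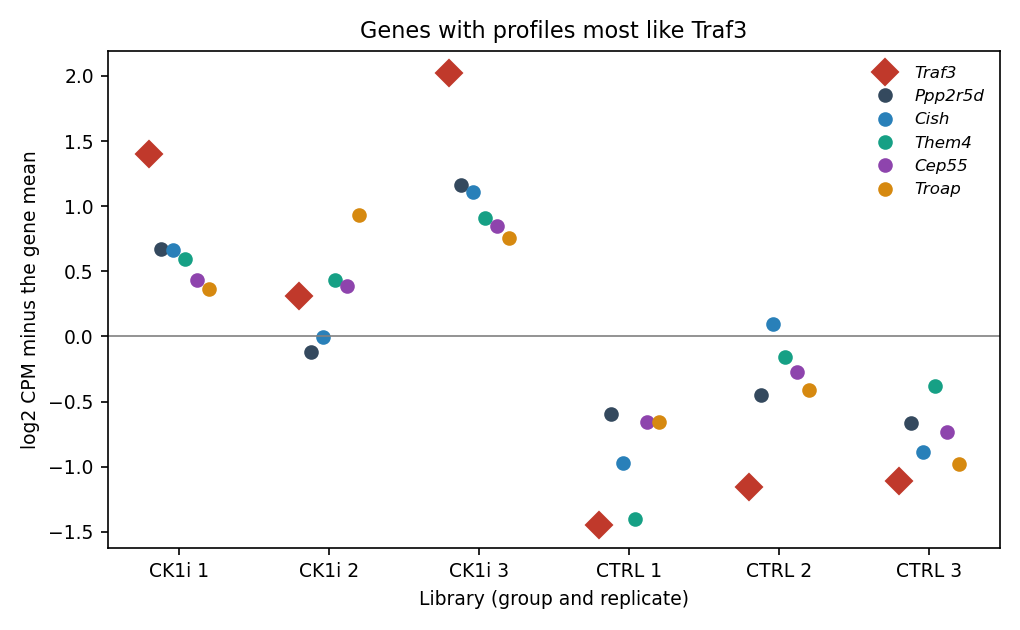
Log2 CPM minus the mean of each gene (vertical axis) in the 6 libraries (horizontal axis) for Traf3, as diamonds, and the 5 genes with the most similar profiles, as circles. Traf3 is between 0.31 and 2.02 in CK1i and between -1.45 and -1.11 in CTRL, a wider span than any of the 5 genes.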

How the data were processed

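RNA of sorted splenic CLL cells was read with QuantSeq forward 3' libraries with unique molecular identifiers (UMIs), per the labels' protocols. The authors deposited raw counts for 54232 genes in 6 libraries, with library totals of 2472064 to 3105137. The submitters' processing notes list STAR 2.7.3a, featureCounts 1.6.3 and UMI-tools 1.1.1, among others, with the build GRCm38.p6. UMI collapsing and the strand setting are not given in the sources used here. The Poisson intervals and the floors cover counting error only. They take each count as a separate molecule, which could not be checked. The intervals of fold changes come from the edgeR fit and include the spread between libraries. Of the identifiers, 54165 matched GENCODE M21 (GRCm38), which gave coordinates.

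The test was run with edgeR 4.0.16 under R 4.3.3: filterByExpr (minimum count 10, minimum total 15; 10067 genes kept), TMM scaling and the robust quasi-likelihood F test of CK1i against CTRL, two-sided, with adjusted p under 0.05 as the threshold. The SE is the log2 fold change divided by the root of F. Log2 CPM used a prior count of 2. The floor for a count of 0 is 3 counts over the 6 libraries. All libraries carry 1 batch label. DESeq2 1.42.0, limma-voom (limma 3.58.1), other scalings and filters and leaving out each library were alternatives.

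Members and lists were chosen with earlier results of these data known. Besides the members, named genes are up to 4 per list with the smallest p, the 4 tested genes nearest Traf3, the 5 most similar profiles and defining markers; others are marked where named.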

Additional observations from a re-analysis of the deposited data

How the results depend on the processing

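Traf3 was higher in CK1i under all 12 alternatives, with log2 fold changes of 2.63 (limma-voom) to 2.89 (DESeq2) and of 2.41 to 3.22 with 1 library left out. Its direction follows from the counts for which the gene was picked, so these values show only how the size varied. The 9 partners gave 0 calls under each alternative. Over all genes the count of calls was 0, but 3 with no filter, 5 with DESeq2 and 0 to 1 with 1 library left out; the cause was not tested. Of the listed genes outside the members 0 were called, but 1 with DESeq2, Ube2c (adjusted p = 0.0173; range over its alternatives 0.0173 to 1). Log2 fold changes near 0 changed sign: Birc2 was 0.0056 with library totals and 0.015 with limma-voom. With 1 library left out, the ranges of those that crossed 0 were -0.14 to 0.082 for Traf2, -0.11 to 0.19 for Birc2, -0.085 to 0.38 for Chuk, -0.13 to 0.15 for Tnfrsf13c, -0.15 to 0.60 for Fcer2a, -0.030 to 0.25 for Fbxw11, -0.47 to 0.23 for Traf1, -0.22 to 0.12 for Pim2, -0.051 to 0.39 for Cdc42bpb, -0.32 to 0.019 for Bcl3, -0.021 to 0.13 for Tnfrsf13b, -0.58 to 0.22 for Ltb and -0.48 to 0.14 for Ankrd9. No paired analysis was possible because the labels do not match CK1i libraries to CTRL libraries. Replicate numbers count the libraries within each group and do not link the groups. List medians near 0 also crossed it, that of the canonical arm lying between -0.17 and 0.084. CTRL levels of Traf3 rest on 7 to 10 counts per library.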

Other observations

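Plasma cell genes varied within CK1i. Jchain, which encodes the chain that joins IgM and IgA units, had 846, 282 and 983 CPM in CK1i replicates 1, 2 and 3, against 922, 1350 and 632 CPM in the CTRL libraries. The summed level of 5 plasma cell markers was 1135, 468 and 1295 CPM in CK1i and 1239, 1603 and 863 CPM in CTRL. Most of each sum was Jchain. CK1i replicate 2, the CK1i library with the lowest Traf3, also had the lowest sum of all 6 libraries. The CTRL libraries, all low in Traf3, spanned 863 to 1603 CPM. A link between these genes and Traf3 was not tested.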
